A study of Mus musculus with 10 samples.

Results

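Somatostatin interneurons are inhibitory neurons of the cortex that release GABA together with the peptide somatostatin, encoded by Sst. Here they were taken from single-cell RNA libraries of the mouse medial prefrontal cortex by a rule on the counts of unique molecular identifiers (UMIs, 1 per captured RNA molecule). The members were chosen by measured values, so Sst and the other genes of the rule are described here without a test. A barcode, which stands for 1 droplet and usually 1 cell, was kept with at least 500 genes and at most 15% mitochondrial UMIs. It was called a somatostatin barcode with at least 10 UMIs of Sst and fewer than 3 of Vip. It also needed at least 2 UMIs of Gad1, Gad2 and Slc32a1 together, at most 1 of the excitatory genes Slc17a7 and Neurod6, and at most 1 of the glial and vascular genes Gja1, Cldn5 and Mog. The rule found 407 of 48816 kept barcodes, among 1857 GABAergic barcodes that met it without the Sst and Vip conditions.

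The mice were C57BL/6N males over 2 months old, ranked by the tube test, a contest of social dominance that a mouse loses by retreating. The tissue was punched 1 day after the last contest. There were 5 libraries of rank 1, the dominant position, and 5 of rank 4, the subordinate position, and all came from animals that had been through the tube test. Each library pooled tissue punches of 2 or 3 mice, dissociated with papain, so the library was the replicate and no value belongs to 1 animal. No genotype, drug or other treatment distinguished the groups in the labels.

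Somatostatin is cleaved from a precursor and acts on a family of inhibitory receptors. The neurons that make it arise in the medial ganglionic eminence of the embryo under Lhx6, as parvalbumin neurons do, and most of them contact the distal dendrites of pyramidal cells, the classical example being the Martinotti cell. The related peptide cortistatin, encoded by Cort, binds the same receptors. A rare class with long-range axons is known for Chodl, Nos1 and abundant neuropeptide Y.

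Depth and quality differed among libraries. The deposited libraries held between 4442750 and 29278466 UMIs, and kept barcodes had median depths between 1356 and 2679.5 UMIs. Replicate 1 of both ranks stood apart: an Sst UMI was present in 43.4% (rank 1) and 45.6% (rank 4) of their kept barcodes outside the GABAergic gate, against 1.77% to 16.6% in the other 8 libraries. Results that rest on these libraries are given without them where that changes a call. Among kept barcodes, 288 of 48527 barcode strings occurred in more than 1 library, and 1 string occurred among the somatostatin barcodes of a pair of libraries.

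The somatostatin barcodes carried between 10 and 632 UMIs of Sst, with a median of 39 and quartiles of 20 and 74.5. Their median depth was 3708 UMIs, above the 2547 of the other GABAergic barcodes (those with fewer than 3 Sst UMIs, 1295 in all) and the 1672 of all kept barcodes. A minimum of 10 Sst UMIs is met more readily by a deep barcode. The markers of the type were checked. Gad2 was detected in 95.6% of the barcodes and Gad1 in 84.8%, the enzymes that make GABA, which the rule used. The markers it did not use were Lhx6, a transcription factor of the lineage, detected in 42.3%, and Crhbp, a secreted protein that binds corticotropin-releasing hormone, detected in 39.6%. No doublet caller was run, and 14 of the 407 barcodes had over 3 times the median depth.

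At the edge of the rule, 55 barcodes had 10 to 14 Sst UMIs and 73 GABAergic barcodes had 5 to 9. Grin3a stood at 871 CPM (UMIs of the gene per 1000000 summed UMIs) just inside and at 660 CPM just outside. Crhbp stood at 228 CPM inside and 276 CPM outside, and Lhx6 at 114 CPM inside and 203 CPM outside. The neighbours on both sides of the minimum thus carried these 3 genes. Of the 1857 GABAergic barcodes, 155 had 3 to 9 Sst UMIs and belong to neither group compared below.

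The start of the Sst gene is shown because Sst defines these cells and its promoter is the classical site of a cAMP response element. Sst (ENSMUSG00000004366) lies at chr16:23889573-23890958 on the minus strand of GRCm38 in GENCODE M21. The RefSeq window of GRCm38.p6 holds the palindrome TGACGTCA once, starting 48 bases before the RefSeq start site. That start site lies inside the longer GENCODE gene, so by GENCODE the palindrome is within the gene. The 120 bases before the RefSeq start sites are given 5′ to 3′ for Sst at chr16:23890845-23890964, for its relative Cort at chr4:149126764-149126883, and for Kctd8 at chr5:69341710-69341829, all on the minus strand, with the palindrome in capitals.
Sst: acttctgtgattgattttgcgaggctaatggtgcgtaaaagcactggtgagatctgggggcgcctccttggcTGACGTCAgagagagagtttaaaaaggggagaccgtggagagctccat
Cort: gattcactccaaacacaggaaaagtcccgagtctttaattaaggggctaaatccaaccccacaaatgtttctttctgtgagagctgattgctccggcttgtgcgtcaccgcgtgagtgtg
Kctd8: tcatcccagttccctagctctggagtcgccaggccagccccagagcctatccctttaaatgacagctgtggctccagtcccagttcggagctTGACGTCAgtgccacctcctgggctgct
The palindrome, read on both strands and overlapping no other motif searched, was in 1.79% of all 32851 promoter windows of 300 bases. It was in 184 of the 4242 tested genes with a window (4.34%), in 18 of 366 genes higher in somatostatin barcodes (4.92%) and in 14 of 448 lower ones (3.13%), where higher and lower refer to the comparison with other GABAergic barcodes given below. Of the 9 genes named below as highest that have a window, Kctd8 alone held it. A match of letters is a description and not a binding site.

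The number of somatostatin barcodes per library ran from 13 to 70 in rank 1 and from 7 to 130 in rank 4. As a share of kept barcodes they made up 0.346%, 0.813%, 0.888%, 1.93% and 0.892% in replicates 1 to 5 of rank 1. The rank 4 libraries had 0.509%, 0.402%, 0.639%, 1.02% and 0.946%. Replicate 4 of rank 1 was the highest and replicate 1 of rank 1 the lowest of all 10, so the ranks overlapped. The mean was 0.974% ± 0.580 (SD, n = 5) in rank 1 and 0.704% ± 0.271 (SD, n = 5) in rank 4. The difference of 0.270 percentage points did not exceed the spread between libraries (two-sided exact permutation test, p = 0.437, adjusted p = 0.833 over the 2 shares tested; the smallest p possible was 0.00794). Without replicate 4 of rank 1 the difference was 0.0307 points. It was 0.0216 points in an alternative that changed several choices together: shallower barcodes were left out, the remaining 970 to 5807 per library were thinned to 1500 UMIs, and the minimums were 5 Sst and 1 GABAergic UMIs.

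Among GABAergic barcodes the somatostatin share was 7.62%, 19.3%, 19.1%, 35.8% and 31.3% in rank 1, and 12.1%, 14.6%, 31.6%, 25.7% and 23.1% in rank 4. Replicate 1 was the lowest library of both ranks. The means were 22.6% ± 11.1 and 21.4% ± 8.02 (SD, n = 5 each), a difference of 1.20 percentage points (two-sided exact permutation test, p = 0.833, adjusted p = 0.833). Rank 1 was higher in 3 of the 5 pairs with the same replicate number for both shares. The direction was not stable: the difference was -4.09 points within replicates 1 to 3 and 9.13 points within replicates 4 and 5. Per library, the exact 95% binomial interval (Clopper-Pearson) ran from 4.50% to 11.9% for the lowest library, replicate 1 of rank 1, and from 26.8% to 45.5% for the highest, replicate 4 of rank 1. These intervals cover counting error only.

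**Figure D1:**
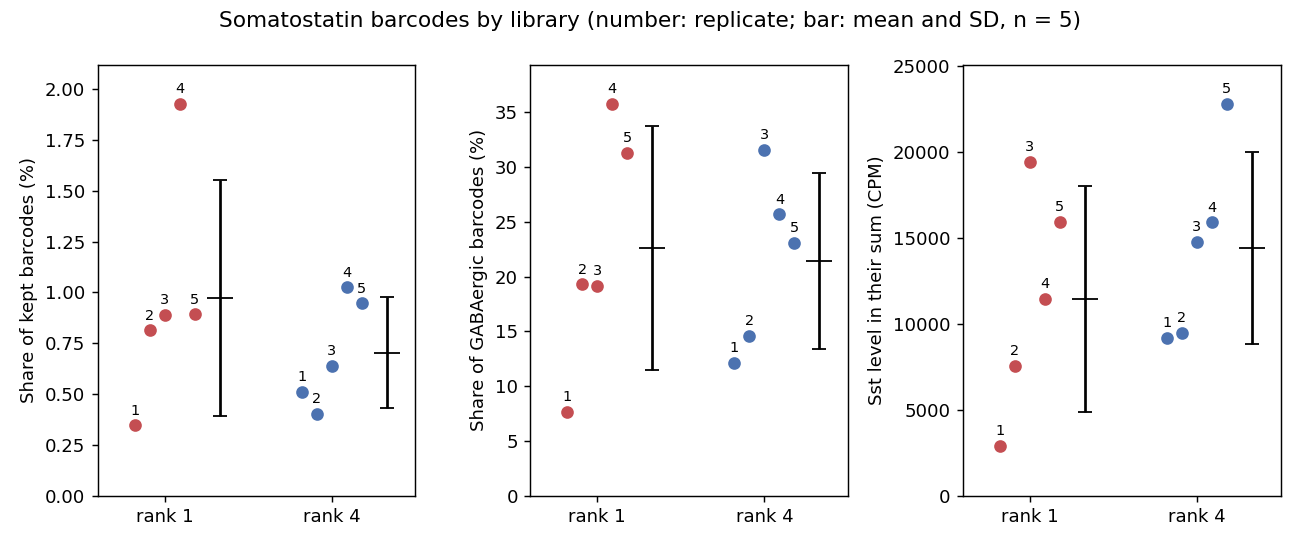
Each point is 1 library and its number the replicate; the panels plot the share of kept barcodes (%), the share of GABAergic barcodes (%) and the Sst level in the summed somatostatin barcodes (CPM), with the mean and SD of 5 libraries per rank. The ranks overlap in all 3 panels, and replicate 1 of rank 1 is lowest in each, at 0.346%, 7.62% and 2893 CPM.

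To describe what else these cells expressed, their UMIs were summed per library and compared with the sums of the other GABAergic barcodes in the same libraries. The 9 libraries with at least 10 barcodes of both types entered the fit, 5 of rank 1 and 4 of rank 4, which left out replicate 2 of rank 4 with its 7 somatostatin barcodes. Adjusted p-values are from edgeR's quasi-likelihood test with the library as block and Benjamini-Hochberg adjustment over 5333 genes, and genes used by the rule were not tested. In all, 1044 genes passed (19.6% of those tested), 466 higher (8.74%) and 578 lower (10.8%) in somatostatin barcodes. The median log2 fold change of all tested genes was -0.02.

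Among the genes named on the higher side, several encode synaptic proteins or receptors. Grin3a, an NMDA receptor subunit encoded at chr4:49661611-49845744 on the minus strand of GRCm38, stood between 444 and 1346 CPM (median 728) in somatostatin barcodes and between 10.4 and 93.9 CPM (median 86.2) in the others. No library's somatostatin value came near the range of the others. The log2 fold change was 3.41 (SE 0.16, adjusted p = 2.44e-17), higher in 9 of 9 libraries. Elfn1, a postsynaptic adhesion protein known for setting the facilitating excitatory input onto these neurons, stood between 260 and 488 CPM against 31.6 to 63.9 CPM (log2 fold change 2.69, SE 0.14). Elfn1 lies at chr5:139907943-139974722 on the plus strand. Grik3, a kainate receptor subunit, differed by 2.74 (SE 0.17) and Kctd8, an auxiliary subunit of GABA-B receptors, by 2.56 (SE 0.22) on the log2 scale. All of these were higher in 9 of 9 libraries.

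The largest positive fold change of the genes tested belonged to Pdyn, the precursor of dynorphin opioids, at chr2:129686565-129699844 on the minus strand. It stood between 57.8 and 267 CPM (median 163) in somatostatin barcodes and between 0 and 10.8 CPM (median 1.97) in the others. The log2 fold change was 5.25 (SE 0.27, adjusted p = 7.95e-17). Trhde, an enzyme that degrades thyrotropin-releasing hormone, was higher by 3.14 (SE 0.15) and Crhbp by 2.97 (SE 0.23). Crhbp varied widely among libraries, from 230 CPM to 1528 CPM, the highest being replicate 2 of rank 1. Lypd6 (3.00, SE 0.17) and its relative Lypd6b (2.84, SE 0.24), which are membrane-anchored modulators of nicotinic receptors, were both higher. Cdh9, a cadherin, differed by 2.67 (SE 0.18) and Smc2, a condensin subunit, by 2.59 (SE 0.24). These 7 genes were higher in 9 of 9 libraries. Several of the named genes overlap other annotated genes, on the same strand for Grin3a, Grik3 and Kctd8, so a part of their UMIs may have been assigned to a neighbour.

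The 8 genes named on the lower side were of several kinds. Adarb2, an RNA-editing family member that marks interneurons from the caudal ganglionic eminence, the other main source of cortical interneurons, had 5 UMIs in all somatostatin barcodes of the 9 libraries and 254 to 641 CPM in the others (log2 fold change -7.15, SE 0.27, adjusted p = 5.24e-20). Prox1, a homeobox factor of the same lineage, had 3 UMIs, and the ratio of its pooled levels was 55.4 (95% counting interval 18.8 to 269.6). Egfr, the epidermal growth factor receptor, had no UMI in the somatostatin barcodes of any of the 9 libraries and 36.4 to 108 CPM in the others. It was at least 46.3-fold lower, taking 3 counts over the pooled group as the floor. Cplx3, a complexin, had 1 UMI (ratio 106, interval 18.9 to 4223). Hapln1, a link protein of the extracellular matrix, had a log2 fold change of -5.20. The values were -4.13 for Cxcl14, a chemokine, -3.88 for Tac2, the precursor of neurokinin B, and -3.83 for Nfib, a nuclear factor I protein. All 8 were lower in 9 of 9 libraries.

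**Figure D2:**
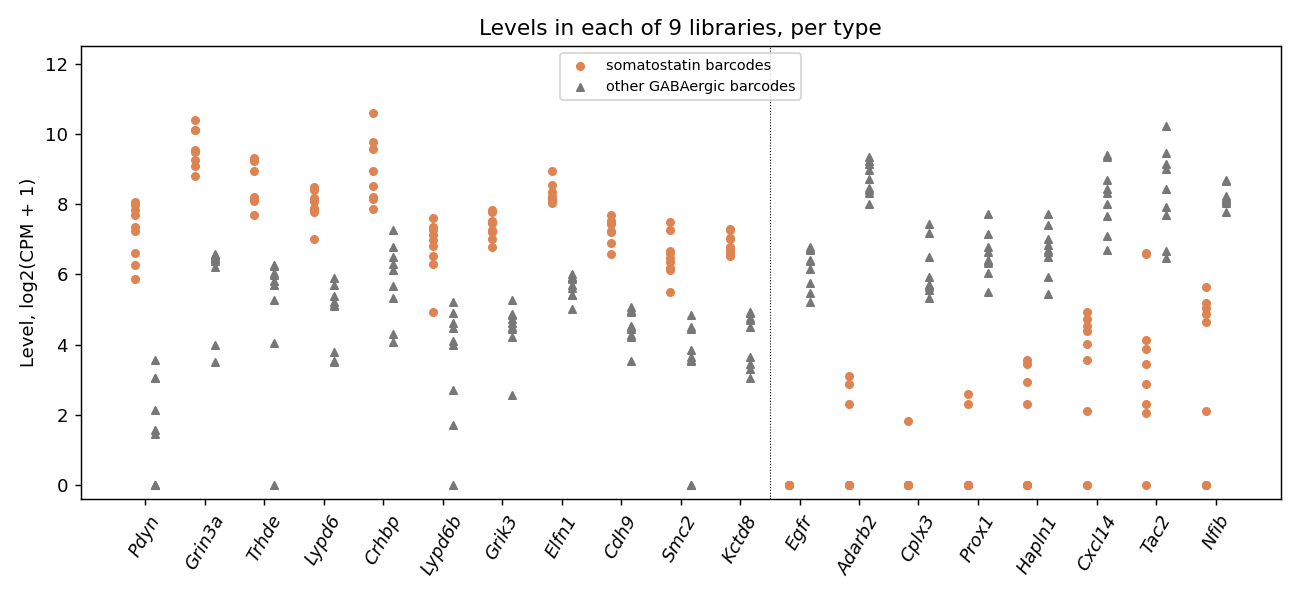
Levels as log2(CPM + 1) of the genes described above in the summed somatostatin barcodes (circles) and other GABAergic barcodes (triangles), 1 point per library for 9 libraries. The genes left of the dotted line are higher and the 8 right of it lower in somatostatin barcodes in every library, with Egfr at 0 in all 9.

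Of 22 regulators of interneuron lineages, 19 were tested, 9 were higher and 6 lower, against 8.74% higher and 10.8% lower of all tested genes, with a median log2 fold change of 0.28 against -0.02 for all genes. Lhx6 stood between 48.8 and 269.9 CPM in somatostatin barcodes and between 10.7 and 96.7 CPM in the others, ranges that overlap across libraries, but was higher in 9 of 9 libraries (log2 fold change 1.28, SE 0.16, adjusted p = 1.72e-07). Satb1, a chromatin organiser needed for the maturation of these neurons, stood at 424 to 953 CPM against 44.4 to 268 CPM (log2 fold change 1.94, SE 0.13). Sox6, which acts after Lhx6, was higher by 0.98 (SE 0.17). Npas1 (1.18), Npas3 (0.73), Nr2f2 (0.75) and Elavl2 (0.56) were also higher. Nfix (-3.47), Sp9 (-1.59) and Nr2f1 (-0.89) were lower, and Adarb2, Prox1 and Nfib completed the lower members. Maf had a log2 fold change of -0.26 (adjusted p = 0.234) and Dlx1 one of 0.28 (adjusted p = 0.282).

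Peptide genes divided. Of 15 neuropeptide genes 8 were tested, 3 were higher and 4 lower, against 8.74% higher and 10.8% lower of all tested genes. Cort stood between 32.5 and 1494 CPM (median 242) against 12.4 to 161 CPM (log2 fold change 2.00, SE 0.24, adjusted p = 4.27e-08), higher in 8 of 9 libraries. Crh, corticotropin-releasing hormone, passed at an adjusted p of 0.0496 with a log2 fold change of 0.70 but was higher in 5 of 9 libraries. Npy did not differ detectably (log2 fold change -0.02, SE 0.23, adjusted p = 0.976), at 453 to 9626 CPM in somatostatin barcodes and 886 to 5914 CPM in the others. Lower were Cck, cholecystokinin (-3.20), Tac1, the precursor of substance P (-2.14), Penk, proenkephalin (-1.36), and Tac2. Among 29 genes that divide somatostatin cells into subtypes, 14 were tested, 11 higher and 2 lower, against the same 8.74% and 10.8%. That list holds known genes of these cells, so its direction is no independent evidence. Reln, a secreted matrix glycoprotein, was higher by 2.27 (SE 0.16) and Calb1, calbindin, by 2.20 (SE 0.12). Nos1, neuronal nitric oxide synthase, was higher by 1.84 (SE 0.35) in 6 of 9 libraries, while Calb2, calretinin, had a log2 fold change of -0.10 (adjusted p = 0.821).

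Genes that process and pack peptides were also read. All 11 were tested, 3 were higher and 1 lower, against 8.74% higher and 10.8% lower of all tested genes. Vgf, a granin-like secretory protein, stood at 634 to 1260 CPM against 221 to 361 CPM (log2 fold change 1.36, SE 0.10), and Chga, chromogranin A, differed by 0.93 and Scg2, secretogranin 2, by 0.44. The convertase Pcsk2 was lower in 8 of 9 libraries (log2 fold change -0.58). Among 20 genes of synapse organisation and channels 19 were tested, 9 higher and 3 lower, against the same 8.74% and 10.8%. Besides Grin3a and Elfn1, higher ones were Cacna2d3 (1.85), Rab3b (1.51), Rbp4 (1.38), Synpr (1.19), Nxph1 (0.69) and Gria3 (0.64). Kcnc1, a fast potassium channel typical of parvalbumin neurons, was lower (-0.86), as was Gria4 (-0.43).

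The shares to read the next 3 counts against are again 8.74% higher and 10.8% lower over all tested genes. Of 19 immediate early genes 7 were tested, and Jun alone passed, with a log2 fold change of -0.62 but lower in 5 of 9 libraries. Fos was at 107 to 357 CPM in somatostatin barcodes against 45.4 to 568 CPM in the others (adjusted p = 0.638). Of 12 glucocorticoid-responsive genes 7 were tested and 3 were lower, Zbtb16 (-1.74), Mt1 (-0.98) and Sgk1 (-0.78). Of 11 heat shock genes 9 were tested and 2 were lower, Hspa1a (-0.80) and Hspe1 (-0.60), which overlaps Hspd1 on the other strand. Markers of other cells moved with this comparison. The 5 astrocyte markers summed to 41.2 to 512 CPM in somatostatin barcodes and 283 to 1287 CPM in the others, and the 4 erythroid markers to 86.9 to 1210 CPM against 104 to 16135 CPM. All 9 of these markers were detected in somatostatin barcodes, none at 0. The 5 microglial markers, all detected, summed to 27.5 to 282 CPM against 36.4 to 2820 CPM. The 4 oligodendrocyte precursor markers summed to 0 to 78.7 CPM against 0 to 621 CPM. The 4 pericyte and smooth muscle markers, of which Kcnj8 was at 0, summed to 13.7 to 57.9 CPM against 5.20 to 503 CPM. The median mitochondrial share per library was 2.81% to 11.1% in somatostatin and 4.12% to 11.3% in other GABAergic barcodes, and lower in somatostatin barcodes in 8 of 10 libraries. With barcodes left out that had at least 10 haemoglobin UMIs or at least 2 of microglial and oligodendrocyte precursor markers (54 of 407 somatostatin and 303 of 1295 other barcodes), 406 of 4673 genes were higher and 410 lower in 8 libraries. Barcodes with fewer such UMIs stayed in, and Hbb-bs, a beta-globin gene, was detected in 44.5% of the 407. The part of the astrocyte and pericyte markers and of the mitochondrial share was not tested.

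The other GABAergic barcodes are a mixture, so the somatostatin sums were also set against 2 single types. Vip barcodes (206 in all, with at least 10 Vip UMIs) and Lamp5 barcodes (101, with at least 3 Lamp5 UMIs) are both mostly of caudal origin. These comparisons reuse the same somatostatin sums and are given side by side. Against Vip barcodes, in 9 libraries, 192 of 1556 genes were higher (12.3%) and 190 lower (12.2%). Against Lamp5 barcodes, in 6 libraries, 276 of 1947 were higher (14.2%) and 256 lower (13.1%). A fit against parvalbumin barcodes, the nearest type by origin, was not run because 2 libraries alone held at least 10 of them, 13 and 15.

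Grin3a was higher by 3.64 against Vip and by 4.75 against Lamp5 barcodes on the log2 scale, and Satb1 by 3.68 and 5.46. Calb1 was higher by 4.29 and 6.03, and Reln by 4.14 and 1.70. Npy, level with the mixed group, was higher than in Vip barcodes by 3.93 while its log2 fold change against Lamp5 barcodes was -2.22. Npy is also a known product of Lamp5 neurons. Elfn1 was higher by 1.03 against Vip barcodes and had 2 UMIs in Lamp5 barcodes (ratio 62.5, 95% counting interval 17.2 to 518).

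Crhbp had 1 UMI in the Vip barcodes of the 9 libraries (ratio 250, counting interval 44.8 to 9898) and none in the Lamp5 barcodes of 6, where it was at least 51.0-fold higher in somatostatin barcodes. Trhde was higher by 2.25 against Vip barcodes and had no UMI in Lamp5 barcodes, at least 76.6-fold higher. Npas1 had a log2 fold change of -0.02 against Vip barcodes (adjusted p = 0.965) and no UMI in Lamp5 barcodes, at least 27.7-fold higher. Lhx6 was too low in both types for the fit, with 2 UMIs in Vip barcodes (ratio 49.2, counting interval 13.5 to 408) and 3 in Lamp5 barcodes (ratio 24.3, counting interval 8.22 to 118). Synpr was lower than in Vip barcodes (log2 fold change -0.62) and higher than in Lamp5 barcodes by 4.62.

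Receptors were mostly too low for the fit and were compared at equal depth. Each barcode was thinned to 2000 UMIs, which kept 372 somatostatin, 818 other GABAergic and 8845 excitatory barcodes and left out 35, 477 and 4662 shallower ones. The median depths before thinning were 3708, 2547 and 2694 UMIs. Excitatory barcodes were chosen by Slc17a7 and Neurod6, with no UMI of Gad1, Gad2 or Slc32a1 and fewer than 3 of Sst. That choice leaves out barcodes with stray interneuron RNA, and excitatory cells may express a receptor themselves. Their share is therefore a comparison and not a background level. Oxtr, the oxytocin receptor, was found in 9.14% of somatostatin, 0.856% of other GABAergic and 1.11% of excitatory barcodes. Unthinned, the shares were 13.0%, 1.24% and 1.86%. Oxtr UMIs occurred in all 10 libraries, with 1, 1, 4, 6 and 19 in rank 1 and 8, 4, 1, 11 and 12 in rank 4, so no library alone carried the signal. In the fit without a filter on low counts, Oxtr had a log2 fold change of 2.76 (SE 0.37, edgeR adjusted p = 5.05e-12) against other GABAergic barcodes.

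Of the 5 receptors for somatostatin itself none passed the filter. Sstr1 was in 6.72% of thinned somatostatin barcodes, 2.81% of other GABAergic and 2.10% of excitatory ones, and 10 of its 65 UMIs came from replicate 1 of rank 1. Sstr2 was in 1.34%, 3.79% and 7.45%, and Sstr3 in 1.08%, 0.611% and 5.88%, both below the excitatory share. Sstr5 had 1 UMI. Sstr4 had no UMI in 407 barcodes, which allows a share of up to 0.737% of barcodes with a UMI. Among receptors that passed, Oprl1, the nociceptin receptor, was higher by 0.80, while Npy1r (-3.07), Htr2c (-1.88) and Adra1b (-1.78) were lower. The last 3 were lower in 9 of 9 libraries. Of 27 hormone and stress receptors 7 were tested, 1 higher and 3 lower, against 8.74% and 10.8% of all tested genes. Nr3c1, the glucocorticoid receptor, had a log2 fold change of -0.27 (adjusted p = 0.355).

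**Figure D3:**
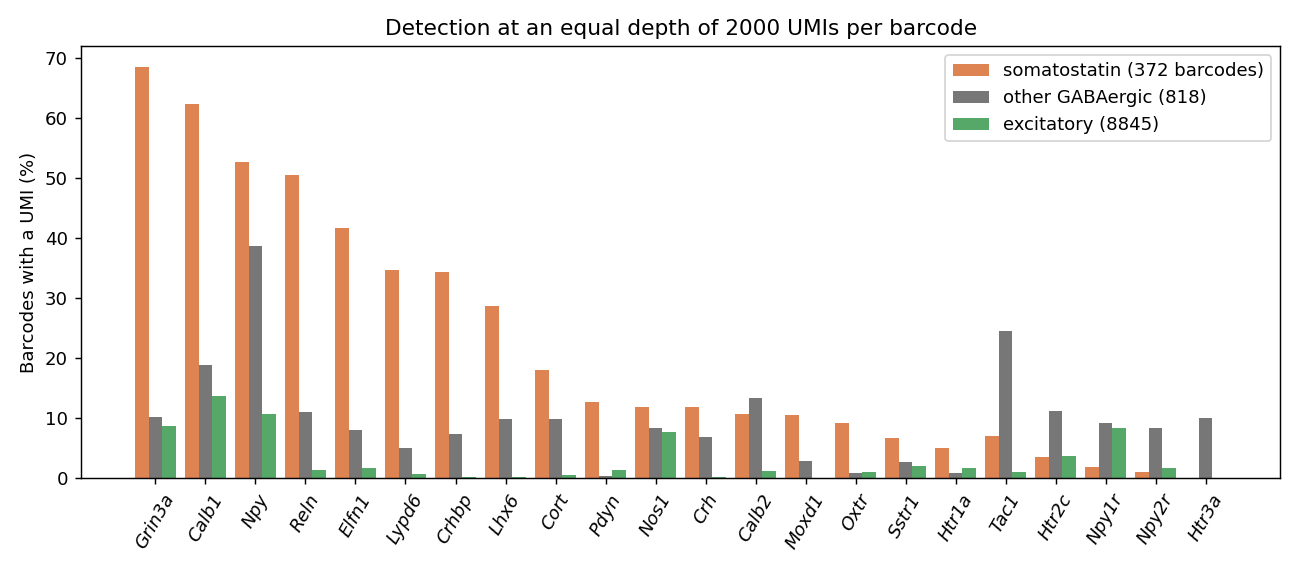
Bars give the share of barcodes (%) with at least 1 UMI of a gene after thinning to 2000 UMIs, for somatostatin, other GABAergic and excitatory barcodes. Grin3a reaches 68.5% against 10.1% and 8.73%, Oxtr 9.14% against 0.856% and 1.11%, and Htr3a, at the right, 0 of 372 (which allows up to 0.806%) against 10.0%.

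Within the somatostatin barcodes, sets were described by the subtype gene they carried. Sets were formed from barcodes with at least 2 UMIs of a gene and are descriptions without a test, since the barcodes come from 10 libraries and a deep barcode passes more easily. Of the 407 barcodes, 234 passed for none of Nos1, Calb2, Pdyn, Crh and Cort, 146 for exactly 1, 23 for 2, 3 for 3 and 1 for 4. Some sets shared barcodes: 9 of the 62 Cort barcodes also passed for Nos1 (14.5%, against 5.51% of the rest), and 6 of the 34 Calb2 barcodes for Pdyn (17.6%, against 8.85% of the rest).

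Chodl defined 9 barcodes in 4 libraries. All 9 carried Npy, Nos1 and Crhbp. Their pooled Npy level was 74001 CPM against 2718 CPM in the other 398 barcodes, and their Sst level 50939 CPM against 14151 CPM. Nos1 stood at 3370 CPM against 126 CPM and Crhbp at 3611 CPM against 356 CPM. Calb1 had no UMI in these 9 barcodes (a share of up to 33.3% is allowed) against 848 CPM in the rest, and Reln stood at 24.1 CPM against 542 CPM. The set combined the highest Npy and Sst levels of the sets formed with little of the Calb1 and Reln that the other somatostatin barcodes carried. Of the 28 barcodes with Nos1, 8 also passed for Chodl.

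Pdyn marked 39 barcodes, found in all 10 libraries. All 39 had at least 2 UMIs of Grin3a, which stood at 1491 CPM against 835 CPM in the rest, and 32 had at least 2 of Reln. Hpse, the heparanase gene used as a label for one somatostatin subtype, was detected in 12 of the 39 and in 2 of the other 368. Cort was detected in 2 of the 39 and Tac1 in 1.

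Tac1 marked 23 barcodes in 5 libraries that looked different from the rest. None of them carried Reln, against 255 of the other 384, and none carried Elfn1, against 235. A count of 0 of 23 allows a share of up to 13.0%. Grin3a stood at 42.4 CPM against 986 CPM and Sst at 6186 CPM against 15634 CPM. Lhx6 was close in both, at 161 CPM and 171 CPM. These barcodes met the rule, while Elfn1 and Grin3a, both higher in the somatostatin group as a whole, were at or near 0 in them. Tac1 is also in the list of parvalbumin markers used here. The markers of that list summed to 244 to 583 CPM per library in somatostatin and 346 to 1772 CPM in other GABAergic barcodes. Whether the 23 barcodes are a somatostatin subtype or hold parvalbumin cells was not tested.

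Crh marked 42 barcodes in 8 libraries. Crhbp, whose product binds the Crh peptide, was detected in 5 of the 42 and in 156 of the other 365, at 40.6 CPM against 488 CPM. Npy stood at 744 CPM against 4897 CPM and Calb1 at 234 CPM against 913 CPM. Calb2 marked 34 barcodes in 8 libraries, with Crhbp at 1136 CPM against 342 CPM and Crh at 14.9 CPM against 148 CPM. The Crh and Calb2 sets thus lay on opposite sides of Crhbp, and 1 barcode belonged to both.

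Cort marked 62 barcodes in 9 libraries. Their Sst level was 27732 CPM against 12447 CPM in the rest and their Npy level 12510 CPM against 2743 CPM, and 50 of the 62 had at least 2 UMIs of Npy. Penk was detected in 17 of the 62 and in 16 of the other 345. Nts, neurotensin, was detected in 6 of the 62 and in 0 of the other 345, which allows up to 0.870%. Its UMIs came from 3 of 10 libraries alone, with 5, 6 and 4 in replicates 3, 4 and 5 of rank 4. Peptide UMIs were concentrated: 85.2% of all Npy UMIs and 85.5% of all Cort UMIs came from the tenth of barcodes with the most.

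**Figure D4:**
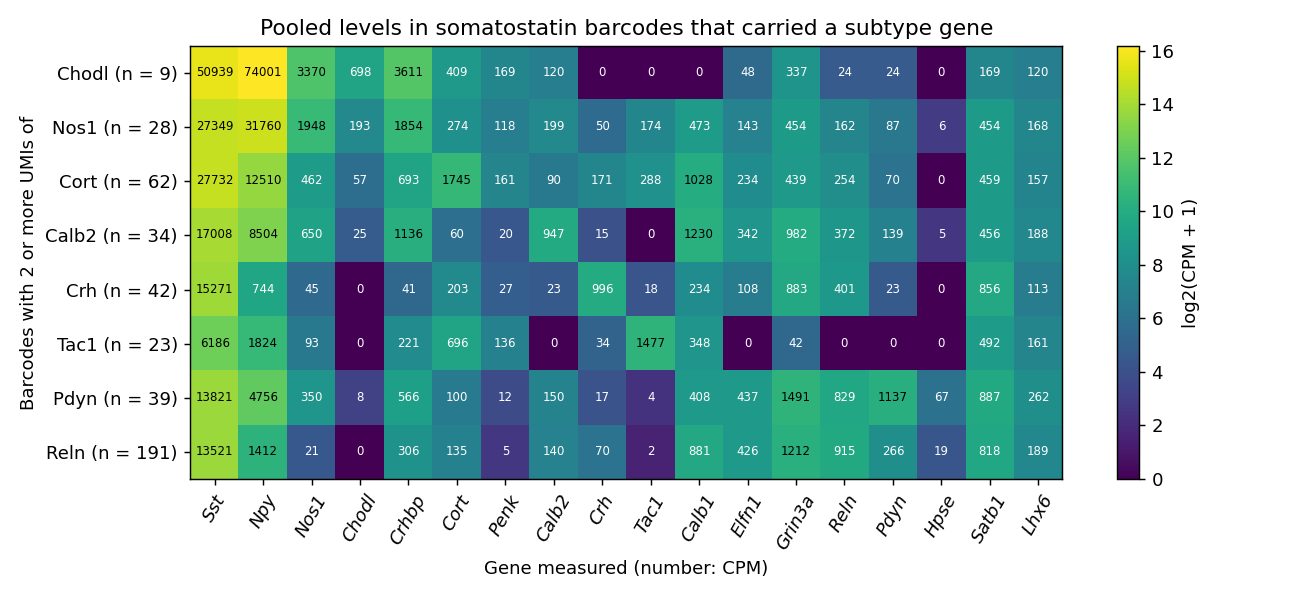
Each line of the grid shows somatostatin barcodes with at least 2 UMIs of the gene at the left (n is their number; a barcode may be in several sets), columns are genes, and each cell gives the pooled level in CPM, coloured by log2(CPM + 1). Npy is at 74001 CPM in the Chodl set and at 744 CPM in the Crh set, and Elfn1 and Reln are at 0 in the Tac1 set.

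To ask whether social rank went with expression in these cells, the sums of 9 libraries (5 of rank 1, 4 of rank 4) were compared with the gene-list version of the library as a covariate. No gene of 3636 passed in edgeR's quasi-likelihood test with Benjamini-Hochberg adjustment (0 called, 0.0%). The smallest adjusted p was 0.999. At an unadjusted p below 0.05 there were 130 genes, and DESeq2 called 0 with 69 at that level. This fit did not pair the ranks by replicate number. With that number as block in place of the version, edgeR's test called 0 and its smallest adjusted p was 0.0508. Each library is a pool of mice, and p-values measure the spread between these pools.

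The defining genes overlapped between ranks. Sst stood at 2893, 7544, 19389, 11425 and 15928 CPM in rank 1 and at 9167, 9472, 14754, 15886 and 22789 CPM in rank 4. Both ranks spanned most of the same range, with replicate 1 of rank 1 below all others. Sst is part of the rule. The fit for rank kept the genes of the rule among those it tested, but no test of Sst is read here. The log2 fold changes of rank 1 over rank 4 for Lhx6 (0.39), Crhbp (0.05), Grin3a (0.25), Elfn1 (-0.15), Satb1 (0.32), Calb1 (-0.12) and Reln (-0.03) had edgeR adjusted p-values of 0.999. Crhbp, Npy and Nos1 varied widely among libraries within a rank, and Reln least of these, at 406 to 648 CPM in the 9 libraries.

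The 6 genes with the smallest p on the higher side in rank 1 were Amer2 (log2 fold change 1.00), Lars2 (0.94), Abraxas2 (0.91), Uba3 (0.87), Lrrtm1 (0.84) and Shfl (0.81). On the lower side they were Nrgn (-1.22), Ttc9b (-1.01), Dpm3 (-0.97), Romo1 (-0.97), Rpl36 (-0.87) and Nmt1 (-0.85). None passed adjustment. Across all tested genes the CPM ranges of the ranks did not overlap in 19 (0.523%), among them Abraxas2, Nmt1, Ttc9b and Rpl36. Nmt1, an N-myristoyltransferase, stood at 118, 130, 96.2, 123 and 148 CPM in rank 1 and at 160, 173, 254 and 308 CPM in replicates 1, 3, 4 and 5 of rank 4. Lars2, a mitochondrial leucyl-tRNA synthetase, was at 0 to 16.3 CPM in the replicates counted with the older gene list and at 341 to 853 CPM in replicates 4 and 5. Rpl36, a ribosomal protein gene, belongs to a family with many near-identical copies, so its counts are uncertain.

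Nrgn, neurogranin, is a postsynaptic protein of excitatory neurons. It stood at 29.5, 16.3, 41.2, 70.0 and 179 CPM in rank 1 and at 109, 0, 32.5, 282 and 290 CPM in replicates 1 to 5 of rank 4. The 0 is replicate 2, with 7 barcodes, which was not fitted. With the replicate number as block in place of the gene-list version, its adjusted p was 0.0508. The 6 excitatory markers summed to 163 to 371 CPM in the somatostatin barcodes of rank 1 and to 203 to 483 CPM in those of rank 4, and their part in the Nrgn values was not tested. The rule itself limits Slc17a7 and Neurod6, which are among the 6, so it holds these sums down. The same block gave 292 genes at an unadjusted p below 0.05 and called 0.

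Peptide genes other than Sst also varied among libraries. Cort stood at 344, 32.5, 673, 117 and 101 CPM in rank 1 and at 70.6, 29.0, 1494, 242 and 481 CPM in replicates 1 to 5 of rank 4. Replicate 3 was the highest library of both ranks. Rank 1 over rank 4 gave a log2 fold change of -1.33 (SE 0.54, edgeR adjusted p = 0.999), with replicate 2 of rank 4 outside the fit. In replicate 3 of rank 4, 83 of 138 Cort UMIs came from 1 barcode, and in replicate 3 of rank 1, 47 of 49. Without replicate 3 of rank 4 the log2 fold change was -0.55. Without replicate 1 of both ranks it was -1.86 with an adjusted p of 0.00309, within replicates 4 and 5 alone -1.74 with 0.0216, and without a filter on low counts -1.38 with 0.00377. With the replicate block it was -0.90 with 0.235. Over the 25 alternatives the log2 fold change ran from -1.89 to -0.55 and the edgeR or DESeq2 adjusted p from 0.00309 to 1.00. At least 2 Cort UMIs were present in 4 of 17, 1 of 16, 1 of 13, 7 of 39 and 7 of 70 barcodes in rank 1 and in 1 of 25, 0 of 7, 9 of 24, 10 of 66 and 22 of 130 in rank 4.

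Pdyn was at 151 to 267 CPM in rank 1 and at 57.8, 97.4, 250 and 76.3 CPM in the fitted rank 4 libraries, with 289.7 CPM, the highest of all 10, in replicate 2 of rank 4, which was not fitted (log2 fold change 0.79, SE 0.35, edgeR adjusted p = 0.999). Npy differed by -0.47 on the log2 scale (SE 0.60, edgeR adjusted p = 0.999). The lowest and highest Npy levels of rank 1 were 453 and 9626 CPM, and single barcodes held up to 70.8% of a library's Npy UMIs. Mt1, a metal-binding stress gene, had a log2 fold change of -0.81 (edgeR adjusted p = 0.999). Of the immediate early genes Fos stood at 116 to 357 CPM in rank 1 and 107 to 303 CPM in rank 4. None of the 7 tested early genes, 3 glucocorticoid-responsive genes, 8 heat shock genes or 11 lineage regulators passed.

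**Figure D5:**
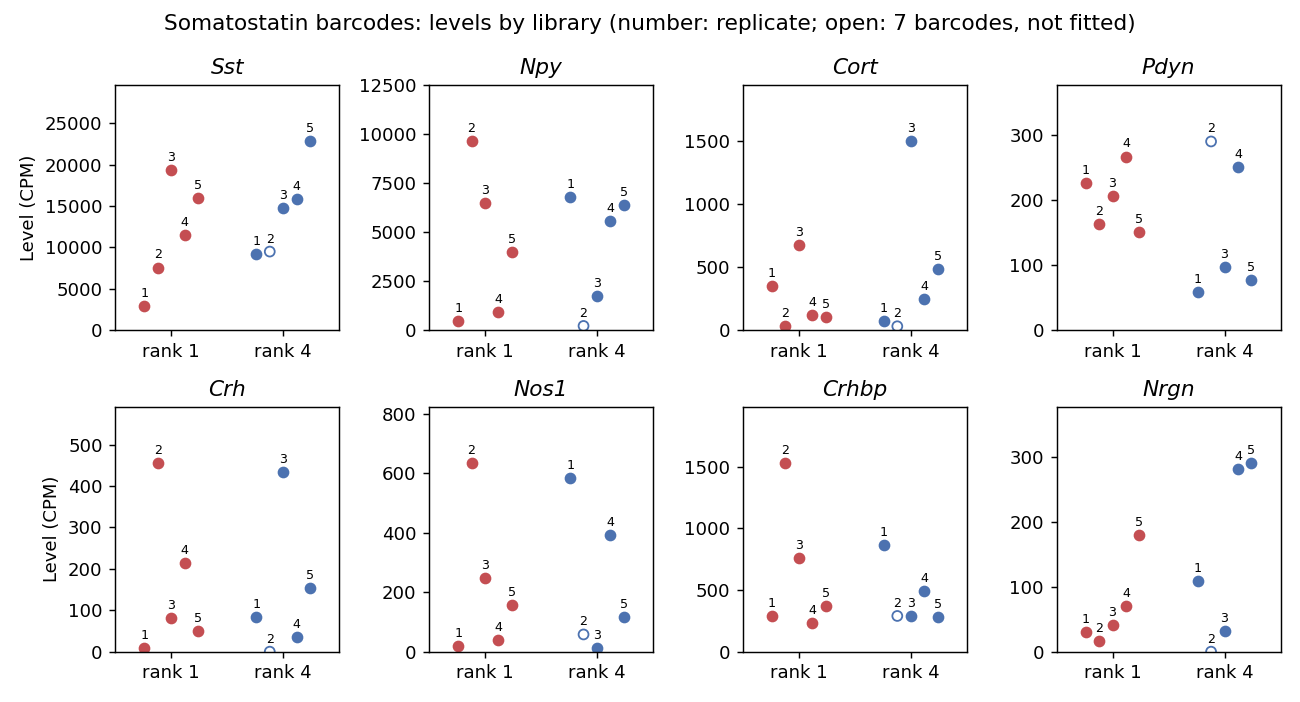
Levels (CPM) of 8 genes in the summed somatostatin barcodes of each library by rank; numbers are replicates, and the open circle is replicate 2 of rank 4 with 7 barcodes, which was not fitted. The ranks overlap for each gene, and Cort is highest in replicate 3 of both ranks, at 673 and 1494 CPM.

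Whether the rank difference in somatostatin barcodes departed from that in the other GABAergic barcodes was tested with an interaction term over 6924 genes. No gene passed in edgeR's test (0 called, 0.0%; smallest adjusted p 0.112; 226 genes at an unadjusted p below 0.05). The interaction of Tac2 passed in 4 alternatives, without the filter on low counts, without replicate 1 or replicate 4 of rank 4, and without replicate 1 of both ranks. Tac2 had 1, 0, 1, 5 and 1 UMIs in the somatostatin barcodes of rank 1 and 1, 0, 9, 1 and 37 in those of rank 4, so 1 library held most of them.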

How the data were processed

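The authors deposited, for each of 10 libraries, raw counts of UMIs per gene and barcode, without normalization. Per the submitters' processing notes, Cell Ranger 4.0.0 and mm10 were used. Per the file headers, the software version was 3.1.0 in replicates 1 to 3 of each rank and 4.0.0 in replicates 4 and 5, with different gene lists, so the 30406 shared genes were used and the version entered the rank fit as a covariate. All 64937 deposited barcodes were read and 48816 kept. Counts were summed per library and type and tested in edgeR 4.0.16 (TMM, filterByExpr, glmQLFit, glmQLFTest) under R 4.3.3, with DESeq2 1.42.0 as alternative. Shares were tested by enumerating the permutations, and scipy 1.17.1 gave the binomial intervals and the counting intervals of ratios. The procedure was tested on simulated data first. Nothing in the labels says whether pools of a rank shared animals.

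The somatostatin sums held between 34522 UMIs (7 barcodes) and 393125 UMIs. Other GABAergic barcodes had fewer than 3 Sst UMIs. Vip barcodes had at least 10 Vip UMIs. Lamp5 barcodes had at least 3 Lamp5 UMIs with fewer than 3 of Vip and Pvalb, and both had fewer than 10 of Sst. Same-numbered libraries of the 2 ranks deviated together from their rank means (r = 0.386, 0.513, 0.663 and 0.608 for replicates 1, 3, 4 and 5 over 3636 genes). The numbers were therefore taken to pair them in the alternatives with a replicate block. The main rank fit and the main share tests did not use the pairing. Same-numbered libraries also share the gene-list version, which is a part of these r values. Replicate 5 of rank 1 correlated best with replicate 4 of rank 4, and the other 7 libraries with their own number.

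The members and gene lists were chosen with earlier results of these data known. Named for the type comparison were the 12 largest positive and 8 largest negative fold changes among genes past an adjusted p of 0.05, going 1 way in every library, with at least 50 CPM in the higher type. Named for rank were the 6 smallest p-values each way. From the lists, members past the test were named, and receptors and subtype genes whether or not they passed. A few genes that these rules pick are not reported here, though counts include them. Tac2 in the rank comparison, the members of the gene sets by barcode and Cort's concentration were singled out after their values were seen. Alternatives covered the gates, normalization, filter, tool, covariate, block and each library left out. Sequences are RefSeq's for GRCm38.p6 and positions GENCODE M21's. The build's annotation release used by the authors was not given in the sources used here.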

Additional observations from a re-analysis of the deposited data

Results flagged for a closer look

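Ttc9b, one of the genes named for rank, stood at 231 CPM in the somatostatin barcodes of replicate 5 of rank 4, far above the other fitted libraries of its rank at 96.3, 108 and 119 CPM. The gap to the nearest of these was 0.832 of the range of the 4. Of 44 groups of values checked, 1 stood out in this way, while chance gives about 1 in 20 and hence 2.2.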

How the results depend on the processing

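The difference in the GABAergic share changed direction without replicate 4 of rank 1 (-2.10 percentage points), without replicate 5 of rank 1 (-0.964), without replicate 1 of rank 4 (-1.12), without replicate 2 of rank 4 (-0.512) and within replicates 1 to 3 (-4.09), and ran from -2.10 to 4.94 over the libraries left out. The difference in the share of kept barcodes kept its sign under the 19 alternatives, from 0.0216 to 0.427. With the replicate block the share differences were unchanged by construction, at 0.270 (exact sign-flip permutation p = 0.25) and 1.20 (p = 0.75). With 5 pairs that permutation could not have reached a p below 0.05. In the fit with the block 0 genes were called for rank. For rank, 2 genes (Cort and Tac2) were called without a filter on low counts, 1 (Cort) within replicates 4 and 5 and 1 (Cort) without replicate 1 of both ranks, and 0 with each library left out. For the interaction, 3 genes were called without the filter (Tac2, Resp18 and Npy), 1 (Tac2) without replicate 1 of rank 4, 1 (Tac2) without replicate 4 of rank 4 and 2 (Tac2 and Resp18) without replicate 1 of both ranks. Without the filter 1641 genes were called against other GABAergic, 1003 against Vip and 1131 against Lamp5 barcodes, in place of 1044, 382 and 532, over more genes tested. Their split was 546 higher and 1095 lower, 664 and 339, and 806 and 325. Against other GABAergic barcodes, lower genes outnumbered higher ones except in the following alternatives. These were without replicate 1 of both ranks (468 higher, 453 lower) and at most 10% mitochondrial UMIs (497 higher, 474 lower). DESeq2 called 316 against Lamp5 barcodes, and the cause was not tested. With each library left out, 836 to 1020, 298 to 426 and 392 to 632 genes were called in these 3 comparisons. The 20 genes picked for the type comparison kept direction and call in the 321 combinations of gene and setting run, and for the 12 genes picked for rank together with Cort 297 combinations did and 3, all of Cort, did not. The fit against Lamp5 barcodes with at least 20 per library could not be made. Leaving out replicate 1 of both ranks, and barcodes with at least 10 haemoglobin or 2 microglial and precursor UMIs, was chosen after seeing the data. The 7 to 130 somatostatin barcodes per library limit the precision for genes of a few UMIs.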

Other observations

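Several receptors and peptides below the count filter differed between somatostatin and other GABAergic barcodes in the fit without that filter (edgeR, adjusted over all genes tested there). Chodl had 33 UMIs in somatostatin and 1 in other GABAergic barcodes. Moxd1, a monooxygenase-like gene, was higher by 1.62 on the log2 scale (adjusted p = 2.97e-08) and found in 10.5% of thinned somatostatin, 2.93% of other GABAergic and 0.113% of excitatory barcodes. Htr1a, an inhibitory serotonin receptor, was higher by 2.00 (adjusted p = 0.000117), in 5.11% against 0.978% and 1.78%. Crhr2, a receptor for urocortins, was higher by 2.44 (adjusted p = 0.0066) on 21 UMIs against 7.

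On the lower side, Htr3a, the ionotropic serotonin receptor of caudal interneurons, had 2 UMIs in somatostatin and 327 in other GABAergic barcodes. Npy2r was lower by 4.01 (adjusted p = 6.56e-24), on 6 UMIs against 226. Pthlh, parathyroid hormone-like hormone, was lower by 3.62 (adjusted p = 5.2e-13), on 4 UMIs against 146. Nr3c2, the mineralocorticoid receptor, was lower by 2.23 (adjusted p = 4.09e-13) while Nr3c1, the glucocorticoid receptor, had a log2 fold change of -0.28 (adjusted p = 0.499) in the same fit.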
